A study of Homo sapiens with 6 samples.

Results

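The direct contrast described here sets cells with small interfering RNA against PIR (siPIR) beside cells given the compound SP2509, in HCT116, a long-established line of human colorectal cancer cells. The members are the 4 libraries of these 2 arms, chosen by their sample titles out of 6 libraries in the series, with 2 libraries an arm and 2 of untreated HCT116 cells. The SP2509 libraries carry the label of 3 uM for 48 h, and the siPIR libraries carry a PIRIN knockdown genotype, also with 48 h stated for the knockdown. The treatment label of the siPIR libraries names SP2509 as well, so whether those cells also received the compound cannot be told from the labels. No library is labelled as having received a non-targeting siRNA, a transfection reagent alone or, although the protocol names it, DMSO. Effects of transfection and of PIR loss therefore cannot be told apart, and the same holds for the solvent and the compound. The sample descriptions also carry a number whose meaning (passage, plate or batch, for example) is not stated. The SP2509 and untreated pairs carry the same numbers. The siPIR pair shares only its higher number with them, and its lower number occurs in no other group. Arm and number are thus partly confounded. Nothing in the labels says that the libraries of a group came from separate cultures, so p-values measure only the spread between these libraries, which may be technical.

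SP2509 is known as an inhibitor of LSD1, the histone demethylase encoded by KDM1A, which works in the CoREST complex and removes methyl groups from histone H3. Pirin, the product of PIR, is a nuclear member of the cupin family that binds iron and is known as a cofactor of the transcription factor NF-kB. The series title links SP2509 to TERT, which encodes the catalytic subunit of telomerase. Setting the arms against each other asks which gene programmes belong to the compound, which to the knockdown, and which to both.

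The libraries held 22622121 to 28816285 counts after rounding. Log2 levels of the 2 siPIR libraries correlated at 0.9909 over the tested genes and those of the 2 SP2509 libraries at 0.9938, while siPIR and SP2509 libraries correlated at 0.7493 to 0.7907. The siPIR libraries also stood apart from the untreated ones, and their replicates differed more from each other: chi-square of counts between replicates per degree of freedom reached 17.4 in the siPIR pair, against 6.57 and 4.1 in the SP2509 and untreated pairs. The mean GC content of the counted transcripts, weighted by counts, was lower in the siPIR pair (42.3% and 42.8%) than in the SP2509 pair (48.3% and 48.5%). Genes with at least 1 count numbered 20905 and 21402 in the siPIR pair, fewer than the 22890 and 22707 of the SP2509 pair. Of 13 markers of colorectal epithelium, CDX1 was at 0 in every library, and their summed level was 4583 to 4682 CPM by library total in untreated and SP2509 libraries and 1069 and 1151 CPM in siPIR libraries. Summed levels of 10 fibroblast markers were 2.54 and 2.25 CPM in siPIR, 21.7 and 19.8 CPM in SP2509 and 29.2 and 33.3 CPM in untreated libraries, with COL1A2 and POSTN at 0 everywhere. Like the epithelial sum, this sum was lowest in siPIR. Those of 10 leukocyte markers were 0.309 to 1.77 CPM, with PTPRC, CD3D, CD3E, MS4A1 and FCGR3A at 0. Those of 8 endothelial markers were 0.398 to 2.67 CPM, with CDH5 and CLDN5 at 0.

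Throughout, a log2 fold change is siPIR minus SP2509 unless another pair is named, so that a negative value is a lower level in siPIR. Levels are depth-scaled counts (CPM) with library factors from the trimmed mean of M values. CPM levels, and where they lie relative to untreated libraries, are as counted. Fold changes are given as counted and again with a GC-length offset, unless a sentence names 1 of these fits. The offset takes out of each library the trend of its counts with transcript GC content and length. The trend is estimated from these same libraries, so the offset also takes out any real change that follows GC content or length. As counted, 13920 of 16503 genes passed the edgeR test at an adjusted p under 0.05 (84.3%), 6403 of them higher in siPIR (38.8%) and 7517 lower (45.5%), with a median log2 fold change of -0.23 over all genes. With the offset, 11376 of 16345 passed (69.6%), 5333 higher (32.6%) and 6043 lower (37%), with a median of -0.07. The fits gave the same call for 7807 genes (47.8%), 3603 higher (22%) and 4204 lower (25.7%). They gave opposite calls for 2228 genes (13.6%).

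The gap between the arms followed transcript GC content. Unless the median over transcripts is named, GC content is that of the longest annotated transcript. That transcript need not be the one expressed in these cells. As counted, the median log2 value was 2.60 for genes below 35% GC (373) and 0.007 for those at 45 to 50% (2888). The median fell to -3.98 at 60 to 65% GC (1788 genes) and to -5.52 from 65% upwards (608 genes). Spearman's correlation with GC content across 16345 genes was -0.837. With the offset it was -0.162, and the medians of the same 4 bins were 0.30, -0.003, -0.65 and -1.36, so a trend remained among transcripts of 60% GC or more. Genes from 45 to 50% GC, filtered and scaled on their own, gave 2065 calls out of 2903 (71.1%), 1029 higher (35.4%) and 1036 lower (35.7%). Of the tested genes, 374 had no count in either siPIR library, and 231 of the 341 with a GC value had 60% GC or more. Only 37 had no count in either SP2509 library.

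Coding stretches of 4 genes illustrate a low and a high GC content. The bins use whole transcripts, from which the coding values given here can differ. The stretch of 100 coding bases whose GC content is nearest to that of the whole coding sequence is printed for 2 transcripts that were high in siPIR as counted and 2 that were low, with G and C in capitals. They are read from GENCODE 29 transcripts on GRCh38. SLC38A2, an amino acid transporter gene (chromosome 12, minus strand, 46370788 to 46371207, over an exon junction), and HMMR, a spindle protein gene (chromosome 5, plus strand, 163460726 to 163463942, over an exon junction), have 40.5% and 36.7% GC in the coding sequence. JUNB, an AP-1 subunit gene (chromosome 19, plus strand, 12791859 to 12791958), and CCDC85B (chromosome 11, plus strand, 65890784 to 65890883) have 67.9% and 71.9%. By whole transcript JUNB has 64.9% and CCDC85B 67.7%.
SLC38A2: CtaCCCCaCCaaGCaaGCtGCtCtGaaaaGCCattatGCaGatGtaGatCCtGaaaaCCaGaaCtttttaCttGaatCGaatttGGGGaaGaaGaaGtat
HMMR: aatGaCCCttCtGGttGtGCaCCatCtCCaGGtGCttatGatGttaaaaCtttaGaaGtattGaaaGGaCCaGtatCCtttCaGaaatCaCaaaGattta
JUNB: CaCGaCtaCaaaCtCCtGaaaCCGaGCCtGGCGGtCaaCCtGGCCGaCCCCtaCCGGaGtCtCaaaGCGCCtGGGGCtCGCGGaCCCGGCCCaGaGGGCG
CCDC85B: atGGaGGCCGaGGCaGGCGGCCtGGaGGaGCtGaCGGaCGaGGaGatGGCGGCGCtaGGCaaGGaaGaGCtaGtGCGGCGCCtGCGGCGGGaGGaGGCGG
HMMR was at 151 and 132 CPM in siPIR and 17.3 and 15.1 CPM in SP2509 libraries, a log2 fold change of 3.13 as counted and 1.22 with the offset. JUNB was at 0.418 and 0.833 CPM in siPIR and 157 and 171 CPM in SP2509 libraries, which is -8.03 as counted and -4.01 with the offset. Both genes kept their direction, with smaller values once the trend was taken out. For SLC38A2 the values were 2.42 as counted and 0.71 with the offset.

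**Figure D1:**
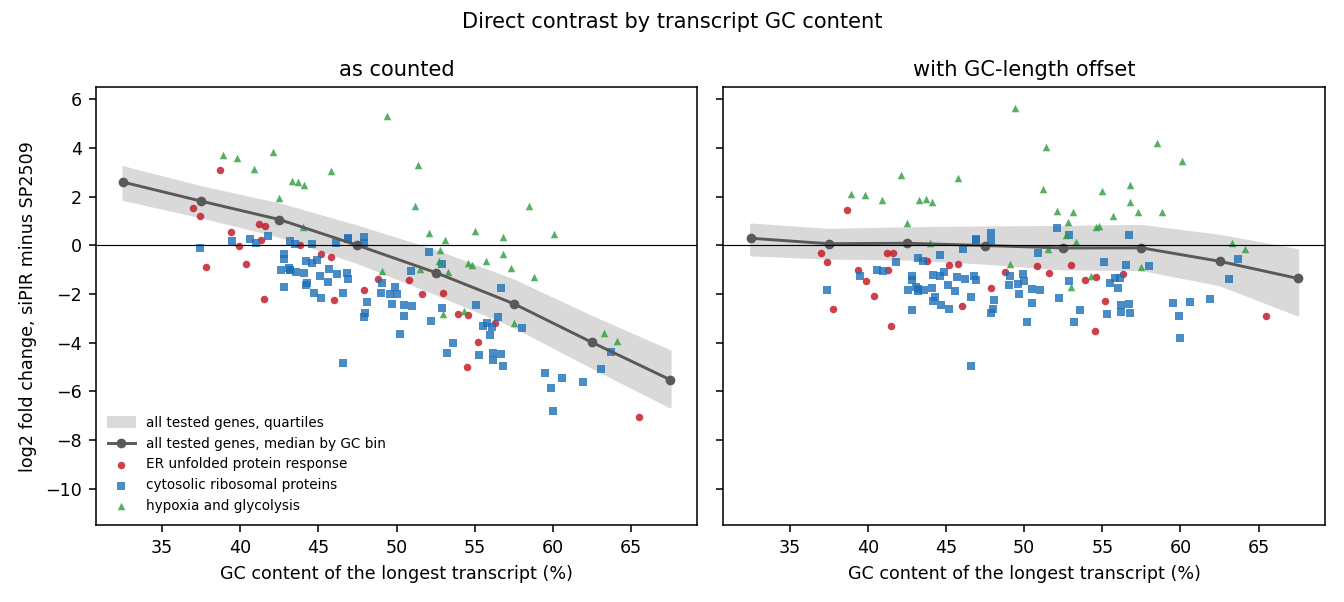
Log2 fold change of siPIR minus SP2509 against the GC content of the longest transcript, as counted (left) and with the GC-length offset (right). The grey line and band are the median and quartiles of all tested genes by GC bin, with the outermost bins open-ended. Points are members of 3 gene lists. As counted the median runs from 2.60 to -5.52. In both panels most ribosomal protein genes lie below the median of their bin, and with the offset 25 of 26 unfolded protein response genes lie below 0 and 26 of 35 hypoxia and glycolysis genes were called above it.

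PIR was lower in siPIR than in SP2509 libraries in both fits. PIR (ENSG00000087842, chromosome X, 15384799 to 15493564, minus strand) was at 1.93 and 2.03 CPM in siPIR, 14.8 and 11.8 CPM in SP2509 and 14.4 and 14.6 CPM in untreated libraries. The siPIR libraries lay below all others, and the SP2509 libraries spanned the untreated ones. The log2 fold change was -2.75 as counted (SE 0.179, edgeR adjusted p = 6.83e-09) and -1.93 with the offset (SE 0.179, edgeR adjusted p = 1.96e-09), the direction that the knockdown label gives.

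TERT separated the arms as counted and did not with the offset. TERT (ENSG00000164362, chromosome 5, 1253147 to 1295069, minus strand) was counted 3 times and 1 time in the siPIR libraries (0.157 and 0.0521 CPM) and 62 and 60 counts in SP2509 libraries (2.44 and 2.33 CPM), against 7.25 and 7.05 CPM in untreated libraries. Both arms lay below untreated, with siPIR the lowest. By counts the SP2509 level was 22.8 times the siPIR level, with an exact 95% interval of 8.69 to 85.1 that covers counting error only. With the offset the log2 fold change was -0.37 (SE 0.688, edgeR adjusted p = 0.651), and 0.24 without siPIR replicate 2. TERT has 65.7% GC, in the bin where all genes had a median of -5.52 as counted. Of 14 tested genes of telomerase and the telomere-capping shelterin complex, 7 were higher and 4 lower in siPIR with the offset, and 3 higher and 7 lower as counted. The shares over all genes were 32.6% higher and 37% lower with the offset, and 38.8% and 45.5% as counted. TERF1, which encodes a shelterin protein that binds telomeric DNA, was higher in siPIR in both fits. Its levels were 125 and 96.3 CPM in siPIR and 16.5 and 19.9 CPM in SP2509 libraries, with 39.9 and 39.8 CPM in untreated ones (2.60 as counted, 2.18 with the offset, SE 0.116).

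KDM1A, the gene of the SP2509 target LSD1 (ENSG00000004487, chromosome 1, 23019443 to 23083689, plus strand), was at 164 and 168 CPM in siPIR, 146 and 141 CPM in SP2509 and 194 and 193 CPM in untreated libraries. The arms did not overlap. As counted both lay below untreated, while with the offset siPIR was higher than untreated (0.51, SE 0.0699, edgeR adjusted p = 1.13e-06) and SP2509 lower (-0.33). The difference between them did not pass the test as counted (0.21, edgeR adjusted p = 0.0521, and -0.02 when scaled by total counts alone) and passed it with the offset (0.84, SE 0.0708, edgeR adjusted p = 3.58e-10). Of 16 tested genes of LSD1 and the CoREST complex, 6 were higher and 7 lower in siPIR with the offset, and 6 and 9 as counted. The shares over all genes were 32.6% higher and 37% lower with the offset, and 38.8% and 45.5% as counted. Nothing is read from the counts of this list. RCOR2, a CoREST family gene, was at 0.888 and 1.04 CPM in siPIR and 30.7 and 34.5 CPM in SP2509 libraries (-5.07 as counted, -1.68 with the offset). It has 62.1% GC, in the bin where all genes had a median of -3.98 as counted.

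EGLN3, WNT16, ID2, BNIP3 and SOX4 were far higher in siPIR than in SP2509 libraries in both fits. They are among the 10 genes with the highest values with the offset out of those that both fits called higher, a ranking that rests on the offset alone. Ranked genes were protein-coding where annotated, with a mean log2 CPM of at least 3. Their libraries were also required not to overlap between the arms, so that trait follows from the rule. EGLN3, an oxygen-sensing prolyl hydroxylase that marks HIF proteins for destruction (chromosome 14, 33924231 to 34462774, minus strand), was at 156 and 170 CPM in siPIR and 4.44 and 3.76 CPM in SP2509 libraries, with 16.5 and 15.2 CPM in untreated ones. It lay above untreated in one arm and below it in the other, and its log2 fold change was 5.31 as counted and 5.65 with the offset (SE 0.106, edgeR adjusted p = 1.15e-20). WNT16, a secreted WNT ligand (chromosome 7, 121325367 to 121341104, plus strand), was at 782 and 704 CPM in siPIR and 19.2 and 21.1 CPM in SP2509 libraries (5.20 as counted, 4.06 with the offset, SE 0.091). ID2, an inhibitor of basic helix-loop-helix transcription factors (chromosome 2, 8678845 to 8684453, plus strand), was at 337 and 296 CPM in siPIR and 27.4 CPM in both SP2509 libraries (3.53 and 4.77). Untreated levels of EGLN3, WNT16 and ID2 lay between the arms. BNIP3, a mitophagy receptor gene, was at 587 and 529 CPM in siPIR and 54.3 and 59.0 CPM in SP2509 libraries (3.30 and 4.06). SOX4, a transcription factor gene, was at 1284 and 984 CPM in siPIR and 136 and 94.9 CPM in SP2509 libraries (3.30 and 3.88).

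The other 5 of these 10 genes had a GC content of 58.5% to 66% and much larger values with the offset than as counted. NES, the nestin gene, gave 1.87 as counted and 4.61 with the offset. The vasodilator peptide gene ADM gave 1.62 and 4.23, and NR2F1, an orphan nuclear receptor gene, 1.27 and 3.99. FOXD1 gave 0.40 and 4.63 and ZNF503 0.58 and 4.02. FOXD1 was at 69.7 and 58.3 CPM in siPIR and 47.7 and 49.2 CPM in SP2509 libraries, so the arms were apart by little before the trend was taken out.

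Among the genes lowest in siPIR, most had no count there. SRXN1, the sulfiredoxin gene that repairs oxidised peroxiredoxins (chromosome 20, 646615 to 653370, minus strand, 53.6% GC), had no count in either siPIR library and was at 27.4 and 28.6 CPM in SP2509 and 9.18 and 7.27 CPM in untreated libraries. Set against a floor of 3 counts per library it was at least 179-fold lower in siPIR than in SP2509 libraries. The same bound was 121 for ZNF628, 109 for NME3, a nucleoside diphosphate kinase gene, 93.6 for C4orf48, 86 for SCAND1 and 67.9 for PRRX2, which have 63.2% to 73.2% GC. These bounds and the ratios that follow are as counted, without the GC trend taken out. As counted the median of all genes was -3.98 at 60 to 65% GC and -5.52 from 65% upwards. UBALD1 and DOHH had 1 count in all in siPIR libraries, against 2819 and 1497 in SP2509 libraries. Their ratios were 2110 (exact 95% counting interval 378 to 83367) and 1120 (201 to 44285). CCDC85B had 4 counts against 5489, a ratio of 1027 (401 to 3771). The log2 fold changes of UBALD1, DOHH and CCDC85B were -10.80, -9.89 and -9.94 as counted. With the offset they shrank to -6.98, -5.63 and -5.44. UPP1, the uridine phosphorylase gene (chromosome 7, 48088628 to 48108733, plus strand), had a mid-range GC content of 48.5%. It was at 4.18 and 5.36 CPM in siPIR, 239 and 285 CPM in SP2509 and 8.33 and 9.83 CPM in untreated libraries, so the SP2509 libraries alone were high. Its log2 fold change was -5.78 as counted and -5.61 with the offset (SE 0.128, edgeR adjusted p = 4.64e-18).

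**Figure D2:**
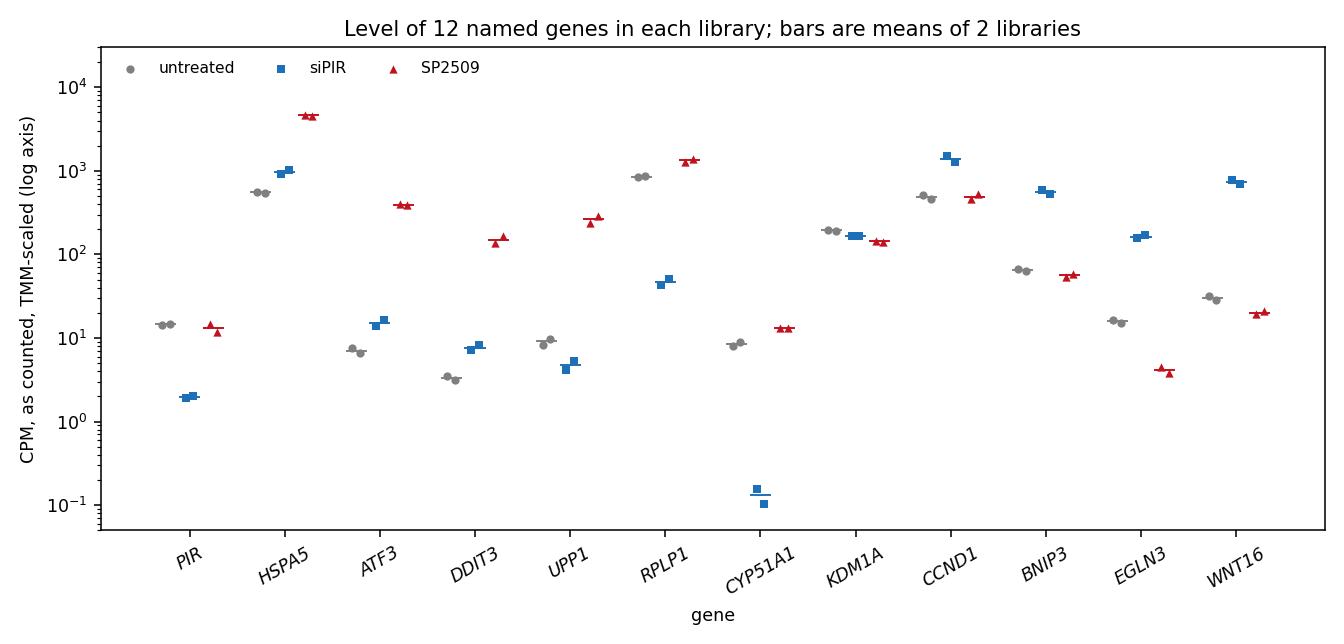
Level of 12 genes in each of the 6 libraries, in CPM as counted on a log axis, with bars at the mean of the 2 libraries of a group. PIR and CYP51A1 were low in siPIR alone. HSPA5, ATF3, DDIT3 and UPP1 were highest in SP2509, and BNIP3, EGLN3 and WNT16 were highest in siPIR.

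The endoplasmic reticulum unfolded protein response was lower in siPIR than in SP2509 libraries. When proteins misfold in this compartment, sensor proteins there activate transcription factors, XBP1 and ATF6 among them, which raise chaperones, folding enzymes and the machinery that clears misfolded proteins. Of 26 tested genes, 25 were lower and 1 higher in siPIR with the offset (median -1.11, against -0.07 over all genes), and 17 were lower and 7 higher as counted (median -1.13). In the range of 45 to 50% GC, scaled on its own, 5 of 5 were lower. HSPA5, the chaperone BiP (chromosome 9, 125234853 to 125241330, minus strand), was at 907 and 1035 CPM in siPIR, 4628 and 4581 CPM in SP2509 and 556 and 548 CPM in untreated libraries. The SP2509 libraries were the highest by far, with siPIR above untreated. The log2 fold change was -2.25 as counted and -2.51 with the offset (SE 0.0866, edgeR adjusted p = 1.23e-16). The transcription factor gene XBP1 was at 71.7 and 71.4 CPM in siPIR and 320 and 329 CPM in SP2509 libraries (-2.18 and -3.31). The co-chaperone gene DNAJB9 was at 77.2 and 75.1 CPM in siPIR and 136 and 124 CPM in SP2509 libraries (-0.77 and -2.10), and in untreated libraries at 12.1 and 12.7 CPM, below both arms. DNAJB11, another co-chaperone gene, gave -0.87 and -2.62. The exception was ERO1A, an oxidase that helps to form disulphide bonds, at 1333 and 1203 CPM in siPIR and 151 and 147 CPM in SP2509 libraries (3.09 and 1.46). The sensor genes ATF6 (0.22 as counted, -0.01 when scaled by total counts alone, and -1.01 with the offset) and ERN1 (-1.41 and -0.84) were also lower in siPIR with the offset.

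Some promoters of this list hold a sequence named after this response. The list is of genes known for the response, so the share below is not independent of that choice. It says nothing on the difference between the arms. The ER stress element, searched on both strands as CCAAT and CCACG with any 9 bases between them, occurs in 7 of the 25 list members with a RefSeq promoter (28%), so most of them lack it, against 22 of 27305 promoters in all (0.0806%). It occurs in 0 of 23 promoters of the integrated stress response list and 0 of 31 of the hypoxia and glycolysis list. The stretches upstream of 4 of these starts are printed with the match in capitals, on the strand of the gene, from RefSeq on GRCh38.p14. They are chr9:125241376-125241424 (HSPA5, minus strand), chr22:28800588-28800636 (XBP1, minus strand), chr19:12938369-12938417 (CALR, plus strand) and chr22:49918539-49918587 (CRELD2, plus strand).
HSPA5: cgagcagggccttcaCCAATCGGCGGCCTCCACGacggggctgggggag
XBP1: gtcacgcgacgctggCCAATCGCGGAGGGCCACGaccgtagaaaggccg
CALR: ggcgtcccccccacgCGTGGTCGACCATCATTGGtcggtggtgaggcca
CRELD2: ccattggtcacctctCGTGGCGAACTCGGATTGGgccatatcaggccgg
In CALR and CRELD2 the match is on the opposite strand. CALR, the calreticulin gene, gave -2.81 as counted and -1.43 with the offset, and CRELD2 gave -5.01 and -3.50. All 7 genes with the element, the other 3 being HSP90B1, CANX and ERO1B, were lower in siPIR with the offset, as were 18 of the other 19. HSP90B1, CANX and ERO1B lay only at -0.33 to -0.31, and without the count filter they were at 0.14, 0.05 and 0.29. A match is a description of the letters in this window and says nothing on binding in these cells.

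The integrated stress response gave the lowest median with the offset of the lists with at least 10 tested members. Its transcription factor ATF4 is translated when the initiation factor eIF2 is phosphorylated and raises genes of amino acid uptake and synthesis. Of 25 tested genes, 21 were lower and 3 higher in siPIR with the offset (median -2.03), and 22 were lower and 1 higher as counted (median -3.61). ATF3 (chromosome 1, 212565334 to 212620777, plus strand, 46.7% GC) was at 13.8 and 16.2 CPM in siPIR and 396 and 390 CPM in SP2509 libraries, with 7.55 and 6.61 CPM in untreated ones. DDIT3, the gene of the stress transcription factor CHOP (chromosome 12, 57516588 to 57521737, minus strand, 49.7% GC), was at 7.10 and 8.28 CPM in siPIR and 136 and 164 CPM in SP2509 libraries, with 3.51 and 3.10 CPM in untreated ones. Both genes were above untreated in both arms, and the SP2509 libraries were far higher than the siPIR libraries. The log2 fold changes were -4.71 as counted and -4.83 with the offset for ATF3 (SE 0.094, edgeR adjusted p = 1.41e-20), and -4.28 and -3.80 for DDIT3. PHGDH, the first enzyme of serine synthesis, was at 5.17 and 5.26 CPM in siPIR, 218 and 232 CPM in SP2509 and 84.7 CPM in both untreated libraries (-5.43 and -4.47). It was thus on opposite sides of untreated in the arms. ASNS, asparagine synthetase, was at 123 and 131 CPM in siPIR and 669 and 713 CPM in SP2509 libraries (-2.44 and -2.53), both above the 59.1 and 55.6 CPM of untreated libraries.

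The 3 exceptions with the offset were DDIT4, an inhibitor of mTORC1 that hypoxia also induces (-0.53 as counted, 1.98 with the offset), the transcription factor gene CEBPB (-3.13 and 1.13) and the amino acid transporter gene SLC38A2 (2.42 and 0.71). Of these, SLC38A2 alone was higher in both fits, and CEBPB was at -0.28 with the offset when no count filter was used. The C/EBP-ATF response element, searched as TGATGNAA on both strands, occurs in 6 of 23 promoters of this list (26.1%) and in 1003 of all 27305 (3.67%). The list is of genes known for the response, so that share is not independent of the choice. It says nothing on the difference between the arms. The matches in ASNS (chr7:97872454-97872491, minus strand) and CHAC1 (chr15:40953247-40953284, plus strand, on the opposite strand of the gene) are printed in capitals, from RefSeq on GRCh38.p14. CHAC1, a glutathione-degrading enzyme gene, was at 0.209 and 0.156 CPM in siPIR and 19.7 and 27.4 CPM in SP2509 libraries.
ASNS: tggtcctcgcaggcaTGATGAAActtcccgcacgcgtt
CHAC1: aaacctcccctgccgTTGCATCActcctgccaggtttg
Of 20 aminoacyl-tRNA synthetase genes, which charge tRNAs with amino acids, 15 were lower and 3 higher in siPIR with the offset (median -0.80), and 14 lower and 5 higher as counted. Only 2 of their promoters were matched, and 0 of these hold the C/EBP-ATF element. CARS, the cysteine enzyme, was at 24.6 and 27.0 CPM in siPIR and 219 and 227 CPM in SP2509 libraries (-3.11 and -2.28), and AARS, the alanine enzyme, gave -3.48 and -2.22. The 3 that were higher in both fits were NARS, DARS and RARS, the enzymes for asparagine, aspartate and arginine, at 0.35 to 0.65 with the offset.

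Immediate early genes, MAP kinase feedback genes, p53 targets and NF-kB targets were mostly lower in siPIR as counted and divided with the offset. AP-1 is a dimer of FOS and JUN family proteins that growth and stress signals raise within minutes. Of 24 tested AP-1 and immediate early genes, 15 were lower and 8 higher with the offset (median -0.78), and 20 lower and 2 higher as counted. The AP-1 site, searched as TGACTCA on both strands, occurs in 1 of 17 promoters of this list, that of FOSL2 (5.88%), close to the 1344 of 27305 in all (4.92%). FOSL1 was at 5.75 and 8.28 CPM in siPIR and 387 and 414 CPM in SP2509 libraries, with 28.8 and 26.5 CPM in untreated ones (-5.83 and -2.84). FOSL2, from the same family, ran the other way at 259 and 235 CPM in siPIR and 119 and 124 CPM in SP2509 libraries (1.03 and 2.19, SE 0.0864). The shares over all genes were 37% lower and 32.6% higher with the offset, and 45.5% and 38.8% as counted. Of 22 genes of MAP kinase feedback, 11 were lower and 6 higher with the offset (15 and 4 as counted). Among them EPHA2, a receptor tyrosine kinase gene, gave -5.04 and -2.05 and the phosphatase genes DUSP14 and DUSP16 gave -2.24 and -1.87 with the offset.

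Of 29 tested targets, 17 were lower and 8 higher in siPIR with the offset (median -0.67), and 18 and 9 as counted. AEN, a nuclease gene with 50.8% GC, was at 18.5 and 22.7 CPM in siPIR and 351 and 365 CPM in SP2509 libraries, with 49.6 and 46.6 CPM in untreated ones (-4.12 and -3.52). PPM1D, a phosphatase that feeds back on p53, was at 125 and 111 CPM in siPIR and 353 and 312 CPM in SP2509 libraries, both above the 39.7 and 44.2 CPM of untreated libraries (-1.49 and -1.94). Of the 8 higher members 7 have under 45% GC, among them CCNG1, cyclin G1 (2.34 as counted, 0.65 with the offset), and MDM2, the ligase that degrades p53 (1.43 and 0.27). CDKN1A, the p21 inhibitor of the cell cycle, changed direction between the fits (-2.06 and 0.40), and was at -0.24 with the offset when no count filter was used. The shares over all genes were 37% lower and 32.6% higher with the offset, and 45.5% and 38.8% as counted. Of 21 NF-kB targets, the group for which Pirin is known as a cofactor, 10 were lower and 5 higher with the offset (median -0.47). As counted 14 were lower and 3 higher. Against untreated libraries, 14 were higher and 1 lower in SP2509 with the offset, and 13 and 3 as counted. In siPIR 10 were higher and 2 lower than untreated with the offset (median 0.53), but 8 higher and 11 lower as counted (median -0.29). TNFAIP3, which switches the pathway off, was at 7.42 and 8.59 CPM in siPIR and 47.9 and 39.9 CPM in SP2509 libraries, both above the 4.09 and 4.08 CPM of untreated libraries (-2.46 and -2.10, SE 0.12). PTGS2, cyclooxygenase 2, was at 2.40 and 1.77 CPM in siPIR and 9.66 and 9.31 CPM in SP2509 libraries (-2.18 and -4.06). NFKBIA, the inhibitor of NF-kB, gave -0.66 as counted and 0.55 with the offset.

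Cytosolic ribosomal protein genes were lower in siPIR and higher in SP2509 than in untreated libraries. These genes encode the protein part of the ribosome and are usually regulated together. Of 77 tested genes, 69 were lower and 6 higher in siPIR than SP2509 with the offset (median -1.64), and 64 were lower and 4 higher as counted (median -1.75). Between 45 and 50% GC of the longest transcript, scaled on its own, 17 of 22 were lower and 2 higher. This range does not control for the GC content of shorter transcripts of these genes. As a share of all counts these genes took 2.22% and 2.74% in siPIR libraries, 7.97% and 8.23% with SP2509 and 6.3% and 6.58% without treatment. RPLP1, a protein of the ribosomal stalk (chromosome 15, 69452784 to 69456194, plus strand), was at 43.6 and 50.1 CPM in siPIR, 1291 and 1377 CPM in SP2509 and 844 and 865 CPM in untreated libraries. Its log2 fold change was -4.83 as counted and -4.97 with the offset (SE 0.094, edgeR adjusted p = 1.15e-20), and -4 when the offset used the median GC content of its transcripts. RPS15, at 60% GC, was at 3.34 and 6.04 CPM in siPIR and 516 and 535 CPM in SP2509 libraries (-6.81 and -3.81), RPS26 gave -2.76 and -2.60, and FAU, whose product carries a ribosomal protein, -4.40 and -3.16. The 6 members higher with the offset were RPL10A, RPL21, RPL22, RPL30, RPL39 and RPS13, at 0.19 to 0.72, and of these RPL21 and RPL39 were also higher as counted. With the offset on the median GC content of the transcripts, all 6 were below 0, from -1.23 for RPL30 to -0.01 for RPL22. RPL21 was at 1155 and 1290 CPM in siPIR and 934 and 981 CPM in SP2509 libraries, both above the 439 and 452 CPM of untreated libraries. Ribosomal protein genes have many processed copies in the genome, so their counts are uncertain where reads were shared.

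Proteasome subunits, the parts of the complex that degrades tagged proteins, were also mostly lower in siPIR. Of 31 tested, 24 were lower and 5 higher with the offset (median -0.86), and 20 lower and 9 higher as counted (median -0.57). PSMD3, a regulatory subunit, was at 12.2 and 16.8 CPM in siPIR and 159 and 161 CPM in SP2509 libraries (-3.46 and -2.41), and PSMB4, a core subunit, was at 29.1 and 37.6 CPM in siPIR and 145 and 141 CPM in SP2509 libraries (-2.10 and -1.95). For both genes the SP2509 and untreated libraries were close, at 132 to 161 CPM, and the siPIR libraries were low. PSMA1 ran the other way at 86.2 and 68.0 CPM in siPIR and 20.2 and 20.6 CPM in SP2509 libraries (1.92 and 1.74). Of 40 mitochondrial ribosomal protein genes, 22 were lower and 10 higher with the offset (median -0.38), and 20 and 15 as counted. Of 41 nuclear genes of the respiratory chain, 23 were lower and 10 higher with the offset (median -0.21), and 21 and 14 as counted. The shares over all genes were 37% lower and 32.6% higher with the offset, and 45.5% and 38.8% as counted. As counted, both lists lay near these shares. COX6A1, a subunit of cytochrome oxidase, was at -1.08 as counted and -2.26 with the offset, and NDUFB9, of complex I, at -1.92 and -2.26.

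Hypoxia and glycolysis genes were mostly higher in siPIR with the offset, with the highest median of the lists with at least 10 tested members, and divided as counted. When oxygen falls, HIF transcription factors raise glucose uptake, glycolysis, mitophagy receptors and prolyl hydroxylases. Of 35 tested genes, 26 were higher and 4 lower in siPIR than SP2509 with the offset (median 1.39), and 17 were higher and 15 lower as counted (median 0.36). The fits gave the same call for 16 higher and 4 lower. Apart from EGLN3, BNIP3 and ADM, HK2, the hexokinase that starts glycolysis, was at 431 and 478 CPM in siPIR, 139 and 153 CPM in SP2509 and 78.8 and 67.1 CPM in untreated libraries (1.64 and 2.31, SE 0.0811). Both arms were above untreated, siPIR more so. PDK1, which keeps pyruvate out of the mitochondrion, was at 293 and 292 CPM in siPIR and 24.7 and 24 CPM in SP2509 libraries, the latter at the untreated level of 26.2 and 22.8 CPM (3.59 and 2.06). The glucose transporter gene SLC2A3 was at 373 and 377 CPM in siPIR and 48.4 and 41.6 CPM in SP2509 libraries (3.06 and 2.76). The core glycolytic genes GAPDH (-1.30 and 1.37) and TPI1 (-0.92 and 1.39) were lower as counted and higher with the offset. The 4 members lower with the offset were HK1, another hexokinase gene (-2.83 and -1.71), PFKP, ALDOA and P4HA2. ALDOA, aldolase A, turned to 0.31 with the offset on the median GC content of its transcripts.

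The core of the hypoxia response element, ACGTG on either strand, occurs in 14 of 31 promoters of this list (45.2%) and in 5900 of 27305 in all (21.6%). It also occurs in 11 of 25 promoters of the unfolded protein response list (44%), which moved the other way. The hypoxia list is of genes known for that response, so its share is not independent of the choice. Neither share says anything on the difference between the arms. The match upstream of BNIP3 (chr10:131982037-131982072, minus strand, RefSeq on GRCh38.p14) reads the same on both strands, with the overlapping matches in capitals.
BNIP3: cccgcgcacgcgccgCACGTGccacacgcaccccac
BNIP3 lies on chromosome 10, 131966455 to 131982013, minus strand. It was at 67.3 and 62.7 CPM in untreated libraries, so the SP2509 libraries, given above, were slightly below and the siPIR libraries far above that level.

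WNT target genes were mostly higher in siPIR than SP2509 with the offset. These genes are switched on when beta-catenin reaches the nucleus, and HCT116 cells are known for a stabilised beta-catenin. Of 17 tested, 11 were higher and 4 lower with the offset (median 1.12), and 7 were higher and 7 lower as counted (median -0.08). Against untreated libraries with the offset, 11 were lower in SP2509, and 8 were lower and 6 higher in siPIR. As counted 12 were lower in each arm. RNF43, a ligase that removes WNT receptors, was at 92.1 and 88.8 CPM in siPIR, 41.5 and 40.3 CPM in SP2509 and 134 and 129 CPM in untreated libraries (1.15 and 1.72, SE 0.0789). AXIN2, a scaffold of the destruction complex, was at 21.7 and 19.9 CPM in siPIR, 9.74 and 5.66 CPM in SP2509 and 34.2 and 33.7 CPM in untreated libraries (1.43 and 2.59). Both lay below untreated in both arms as counted, and lowest in SP2509. With the offset AXIN2 was higher in siPIR than untreated (0.54) and RNF43 did not pass the test there (0.07). The WNT antagonist gene DKK1 was at 825 and 615 CPM in siPIR, 87.2 and 93.0 CPM in SP2509 and 329 and 327 CPM in untreated libraries (3.00 and 2.29), so the arms lay on opposite sides. CCND1, cyclin D1 (chromosome 11, 69641087 to 69654474, plus strand), was at 1489 and 1259 CPM in siPIR, 459 and 526 CPM in SP2509 and 513 and 460 CPM in untreated libraries (1.48 and 2.02, SE 0.0986). The SP2509 libraries spanned the untreated ones, and the siPIR libraries were above both.

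Mitosis genes, splicing factors and KRAB zinc finger genes have low median GC contents, 43.8%, 41% and 39.3%, and their gap between the arms shrank with the offset. Of 36 mitosis genes, 22 were higher and 11 lower in siPIR as counted (median 1.12), and 21 higher and 6 lower with the offset (median 0.32). With the offset 26 of them were lower than untreated in siPIR and 31 in SP2509, while as counted siPIR had 18 higher and 15 lower and SP2509 29 lower. BUB1B, a spindle checkpoint kinase gene, was at 108 and 98.2 CPM in siPIR, 33.0 and 29.9 CPM in SP2509 and 70.6 and 67.7 CPM in untreated libraries (1.72 and 0.92). UBE2C, which feeds the anaphase-promoting complex, ran the other way (-1.45 with the offset). Of 31 splicing factors, 23 were higher and 6 lower as counted (median 1.32) and 15 and 10 with the offset (median 0.17), with HNRNPM at 205 and 191 CPM in siPIR and 110 and 99.7 CPM in SP2509 libraries (0.92 and 2.55). Of 35 KRAB zinc finger genes, repressors of transposable elements, 32 were higher and 1 lower as counted (median 1.89) and 21 and 8 with the offset (median 0.43). The fits gave the same call for 21 higher and 1 lower.

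**Figure D3:**
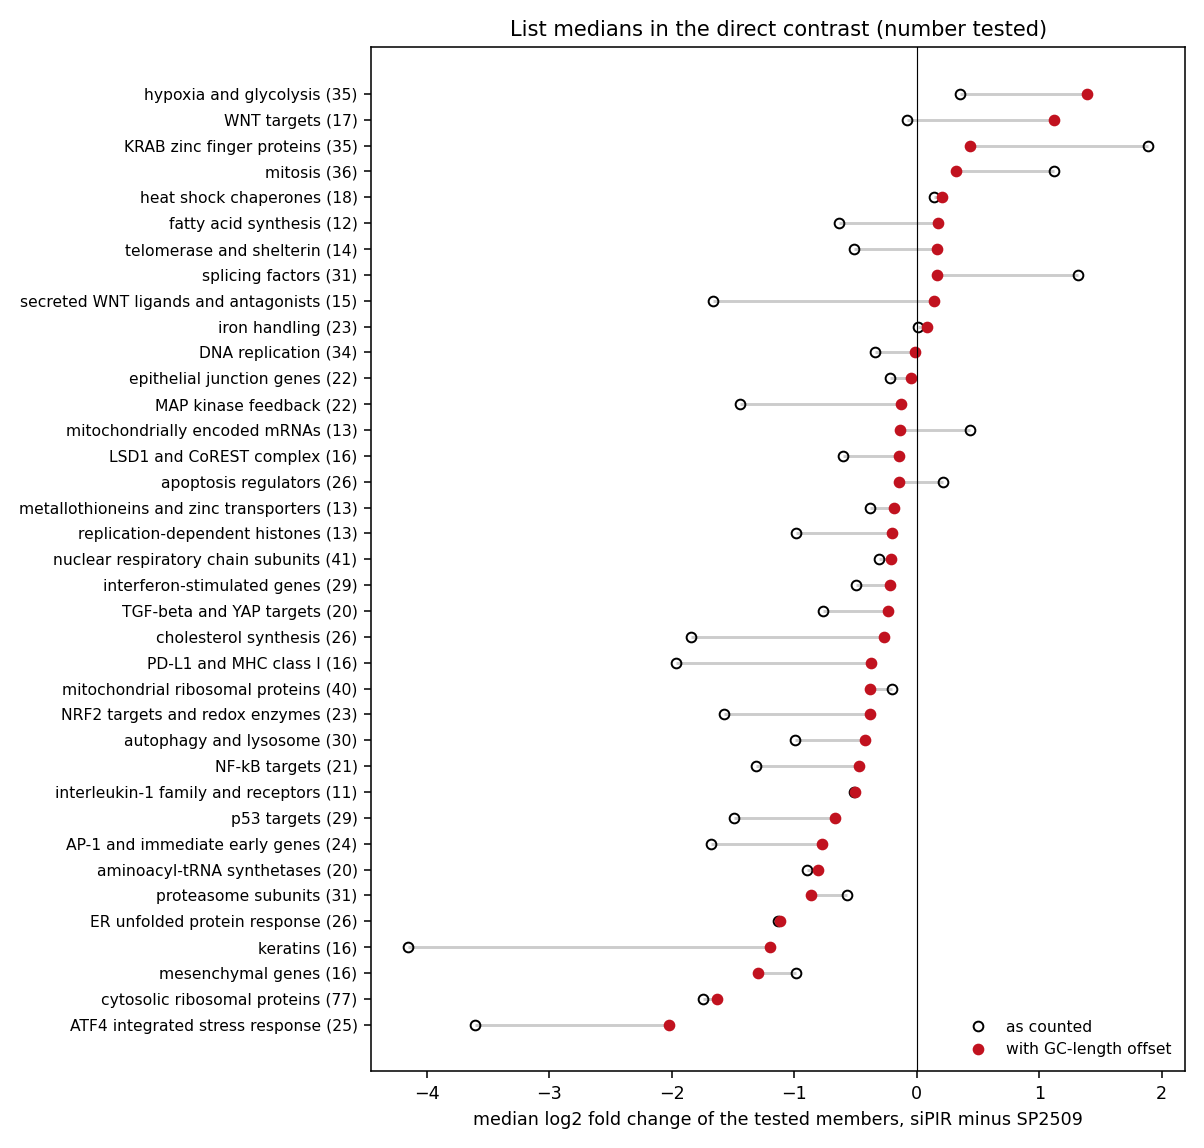
Median log2 fold change of siPIR minus SP2509 over the tested members of each gene list with at least 10 of them, as counted (open) and with the GC-length offset (filled), with the number tested in brackets. The unfolded protein response (-1.13 and -1.11) and ribosomal protein lists (-1.75 and -1.64) gave nearly the same value in both fits, while keratins (-4.15 and -1.20) and KRAB zinc finger genes (1.89 and 0.43) moved towards 0.

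Set against the untreated libraries, which both arms share, the stress lists were higher in SP2509 in both fits, while their direction in siPIR depended on the fit. With the offset 65% of genes passed the test in siPIR against untreated (32.8% higher, 32.3% lower) and 73.1% in SP2509 against untreated (38.5% higher, 34.6% lower). As counted 86.1% passed in siPIR (39.3% higher, 46.9% lower) and 68.6% in SP2509 (33.5% higher, 35.1% lower). The unfolded protein response had 25 of 26 members higher in SP2509 with the offset (median 1.12) and 24 as counted. In siPIR it had 10 higher and 7 lower with the offset (median 0.09), and 17 higher and 9 lower as counted (median 0.73). The integrated stress response had 22 of 25 higher in SP2509 in each fit (medians 2.14 with the offset and 2.10 as counted). In siPIR it had 17 higher and 4 lower with the offset (median 0.64), but 9 higher and 14 lower as counted (median -1.59), so the direction turned.

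Immediate early genes were higher in SP2509, 24 of 24 with the offset and 23 as counted. In siPIR 19 were higher and 2 lower with the offset (median 1.32), against 10 higher and 11 lower as counted (median -0.09). Of 29 p53 targets 24 were higher in SP2509 in each fit. In siPIR 20 were higher and 5 lower with the offset (median 0.73), against 14 higher and 13 lower as counted (median 0.12). For both lists a common rise in siPIR was thus seen with the offset only. Hypoxia and glycolysis genes had 27 of 35 higher and 4 lower in siPIR with the offset (median 1.86), and 17 higher and 15 lower as counted (median 0.15). In SP2509 they divided, 13 and 13 with the offset (median -0.06) and 12 higher and 13 lower as counted. DNA replication genes were mostly lower in both arms, 28 of 34 in each with the offset, and 21 in siPIR and 28 in SP2509 as counted. The direct contrast gave 10 higher and 15 lower with the offset (median -0.02).

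Lists were also sorted by a rule on the calls with the offset, which assigns a list to an arm where most of its members were called one way against untreated in that arm, most were called in the matching direction in the direct contrast, and under 25% were called the same way in the other arm. The rule does not require the other arm to be unchanged, and 4 lists met it. Ribosomal protein genes met it in both arms, higher in SP2509 (76 of 77, median 0.79) and lower in siPIR (59 of 77, with 10 higher, median -0.78), so they moved in both. As counted 76 were higher in SP2509 and 56 lower in siPIR. Proteasome subunits met it as higher in SP2509 (17 of 31 with 8 lower, median 0.21), although 22 of 31 were lower in siPIR, with a larger median of -0.63. As counted only 11 were higher and 8 lower in SP2509. Of 11 genes of the interleukin-1 family and its receptors, 8 were higher and 3 lower in SP2509, with IRAK2, a signalling kinase gene, at 2.30 and 2.13 CPM in siPIR and 16.0 and 18.1 CPM in SP2509 libraries (-2.94 and -2.08). Of 7 arrestin and glucose-responsive genes, 4 were lower in siPIR than untreated and 5 lower than in SP2509, with ARRDC1 at -6.11 as counted and -2.56 with the offset. ARRDC3 of the same list, whose product helps to remove surface receptors, was far higher in siPIR. ARRDC3 was at 1642 and 1557 CPM in siPIR, 64.3 and 64.7 CPM in SP2509 and 74.7 and 66.0 CPM in untreated libraries (4.63 and 2.87). The unfolded protein response, integrated stress response and hypoxia lists did not meet the rule, since over 25% of their members were called the same way in the other arm.

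**Figure D4:**
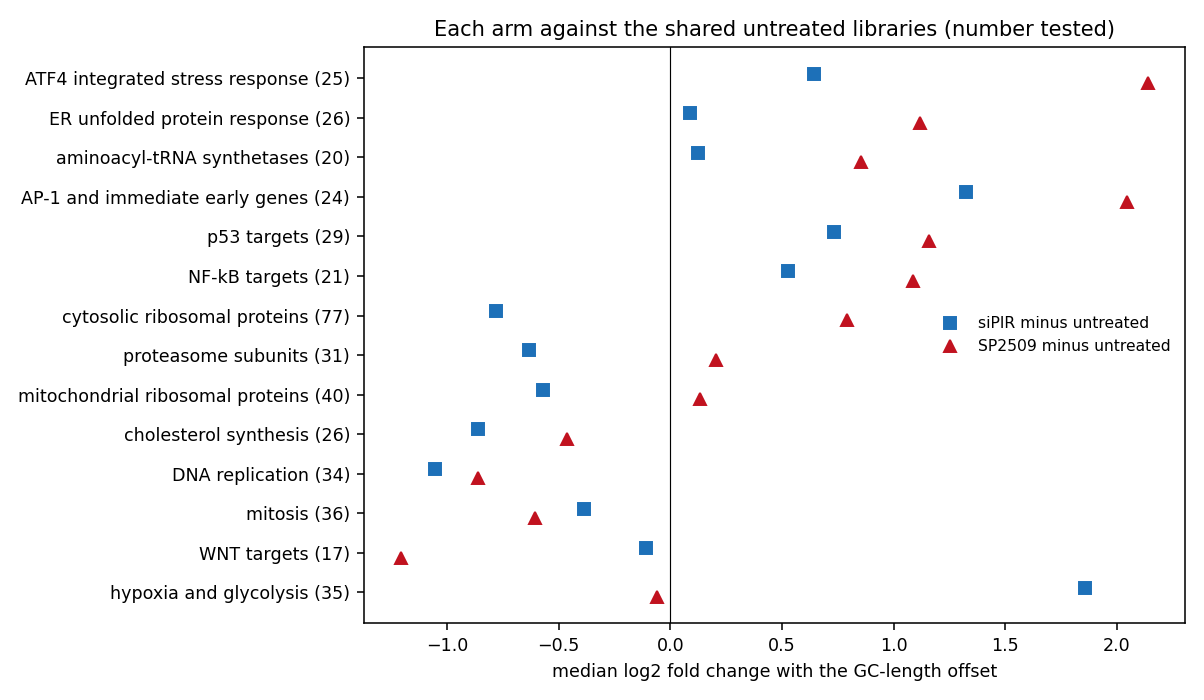
Median log2 fold change with the GC-length offset over the tested members of 14 gene lists, for siPIR (squares) and SP2509 (triangles), each against the same untreated libraries. The shared untreated libraries link the 2 values of a list, so the direct contrast, not this picture, tests the arms against each other. Ribosomal proteins lie on opposite sides of 0 (-0.78 and 0.79), and hypoxia genes at 1.86 and -0.06. As counted, hypoxia genes in siPIR had a median of 0.15 and the integrated stress response one of -1.59.

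Single genes were assigned to one arm when they changed at least 2-fold against untreated in it, by less than 0.5 on the log2 scale in the other arm, and at least 2-fold in the matching direction between the arms, with both changes called. Against untreated, 68.2% of genes passed the test by more than 2-fold in siPIR and 30.8% in SP2509 as counted, and 27.8% and 31% with the offset. With the offset 625 genes were higher in SP2509 alone by this rule (3.82% of those tested), 661 lower in SP2509 alone (4.04%), 575 higher in siPIR alone (3.52%) and 737 lower in siPIR alone (4.51%). As counted the same classes held 270, 377, 1821 and 2298 genes, and 103, 118, 268 and 539 genes met the rule in both fits. As counted the siPIR classes were the larger ones, and with the offset the 4 classes were of similar size.

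Genes higher in SP2509 alone included EIF1, which helps the ribosome to choose the start codon (chromosome 17, 41688885 to 41692668, plus strand). It was at 1291 and 1372 CPM in SP2509, 243 and 294 CPM in siPIR and 228 and 226 CPM in untreated libraries (-2.31 and -2.52). The siPIR libraries sat near the untreated ones. ULBP2, a ligand of the NKG2D receptor of natural killer cells, gave -2.76 and -2.78, ARG2, mitochondrial arginase, -2.47 and -2.51, PRICKLE1, a planar polarity gene, -2.90 and -3.27 and FAM129A -2.21 and -2.61. Genes lower in SP2509 alone included CD24, a surface glycoprotein gene, at 8.56 and 8.07 CPM in SP2509, 49.8 and 40.8 CPM in siPIR and 34.4 and 35.4 CPM in untreated libraries (2.45 and 2.14, SE 0.111). The GTPase gene RHOU was at 5.66 and 3.72 CPM in SP2509 and 26.6 and 21.8 CPM in siPIR libraries (2.37 and 2.47), and RASSF2 gave 2.06 and 2.25, HPCAL4 2.32 and 2.87, TXNRD3 2.16 and 2.13 and ZNF608 1.92 and 1.86. These 11 genes have 45.6% to 50.5% GC. As counted the median of all genes was 0.007 at 45 to 50% GC and -1.11 at 50 to 55%. The rule asks for siPIR near untreated in both fits, so this range follows in part from the rule.

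Genes higher in siPIR alone included BNIP3, ADM and NR2F1, described above, with C17orf58 (1.65 and 3.25), the ligase gene ZNRF2 (2.39 and 3.20) and POLR2J3 (1.25 and 3.66), a member of a family of near-identical copies whose count is uncertain. Genes lower in siPIR alone included UBE2S, which extends ubiquitin chains for the anaphase-promoting complex. It was at 2.14 and 2.92 CPM in siPIR, 183 and 200 CPM in SP2509 and 179 and 160 CPM in untreated libraries (-6.24 and -4.42, SE 0.125). TECR, an enzyme of very long fatty acid synthesis, was at 3.40 and 5.21 CPM in siPIR and 87.2 and 91.8 CPM in SP2509 libraries (-4.38 and -4.19), but at -1.29 when the offset used the median GC content of its transcripts. C19orf60 was at 0.157 and 0.26 CPM in siPIR and 15.9 and 15.8 CPM in SP2509 libraries. PRRX2 had no count in siPIR libraries, and MPG and ZNF358 had 1 count each, against 618 and 839 in SP2509 libraries. As counted, without the GC trend taken out, this gives ratios of 463 (exact 95% counting interval 82.7 to 18299) and 628 (112 to 24833).

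**Figure D5:**
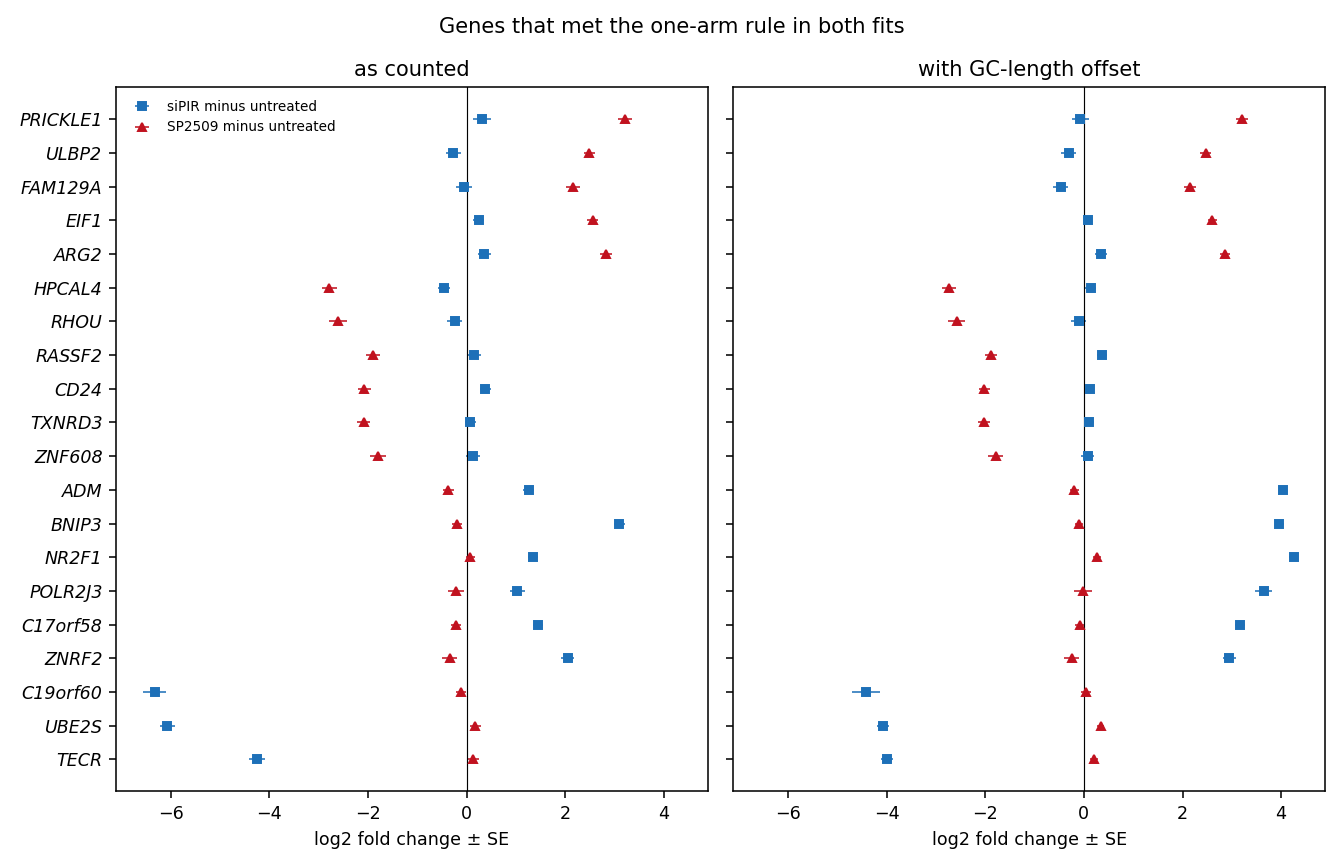
Log2 fold change ± SE against untreated, in siPIR (squares) and SP2509 (triangles), of 20 genes that met the one-arm rule in both fits, as counted (left) and with the GC-length offset (right). The first 11 genes, from PRICKLE1 to ZNF608, changed in SP2509 with siPIR near 0 in both panels. The others changed in siPIR with SP2509 near 0, and their siPIR values moved upwards with the offset.

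Cholesterol synthesis genes gave no common direction but held an extreme gene. Of 26 tested, 13 were lower and 7 higher in siPIR with the offset (median -0.27), and 16 and 10 as counted (median -1.84). CYP51A1, lanosterol demethylase (chromosome 7, 92112151 to 92134803, minus strand, 41.5% GC), had 3 and 2 counts in siPIR libraries (0.157 and 0.104 CPM) and was at 13.1 and 13 CPM in SP2509 and 8.08 and 8.95 CPM in untreated libraries. The SP2509 level was 100 times the siPIR level by counts, with an exact 95% interval of 42.8 to 310 for counting error. NSDHL, a later enzyme of the pathway, was at 4.81 and 4.37 CPM in siPIR and 22.1 and 22.5 CPM in SP2509 libraries (-2.28 and -1.68). INSIG1 (1.36 and 1.08) and INSIG2 (3.45 and 1.39), which hold back the pathway's regulator, were higher in siPIR.

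Keratins were mostly lower in siPIR, much more so as counted, while other epithelial and immune surface lists divided with the offset. Of 16 tested keratins, 9 were lower and 1 higher with the offset (median -1.20), and 14 and 1 as counted (median -4.15). KRT80 was at 3.66 and 4.69 CPM in siPIR, 275 and 290 CPM in SP2509 and 5.86 and 7.12 CPM in untreated libraries (-6.08 and -3.95). KRT8, a marker of simple epithelium, was at 232 and 274 CPM in siPIR and 1812 and 1773 CPM in SP2509 libraries, the latter close to the untreated level of 1856 and 1848 CPM (-2.83 and -0.87). Of 22 epithelial junction genes, 10 were lower and 7 higher with the offset (median -0.05), and 11 and 5 as counted. Together with the summed epithelial markers given above, keratin levels moved with the GC trend, and its part in these values was not tested beyond the offset. Fewer cells of a kind and less RNA per cell cannot be told apart in such bulk libraries. CD274, the immune checkpoint ligand PD-L1 (chromosome 9, 5450503 to 5470566, plus strand, 40.9% GC), was at 5.85 and 5.42 CPM in siPIR, 47.3 and 47.0 CPM in SP2509 and 1.94 and 1.71 CPM in untreated libraries (-3.06 and -4.29, SE 0.115). The other members of the list of PD-L1 and MHC class I genes divided, 7 lower and 4 higher of 16 with the offset, CD274 included. Over all genes the shares were 37% lower and 32.6% higher. Of 29 interferon-stimulated genes, 11 were lower and 7 higher with the offset, close to the 37% lower over all genes. Among them was ISG20, a nuclease gene, at 0.784 and 0.521 CPM in siPIR and 24.8 and 25.9 CPM in SP2509 libraries (-5.27 and -4.19).

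Other lists gave smaller or mixed differences with the offset. Heat shock chaperones divided 9 higher and 7 lower of 18, with HSP90AA1 at 5613 and 5007 CPM in siPIR and 1438 and 1303 CPM in SP2509 libraries (1.95 and 1.54). Mesenchymal genes divided 9 lower and 6 higher of 16. ZEB1, a repressor of epithelial genes, was at 10.3 and 11.3 CPM in siPIR and 19.8 and 14.9 CPM in SP2509 libraries (-0.68 and -2.36), and its untreated level of 2.88 and 2.53 CPM lay below both arms. Iron handling genes, of interest because Pirin binds iron, divided 10 higher and 6 lower of 23. STEAP2, a metalloreductase gene, was at 82.4 and 73.7 CPM in siPIR and 7.54 and 7.88 CPM in SP2509 libraries (3.34 and 1.40), and IREB2, a regulator of iron-responsive mRNAs, gave 3.03 and 1.31. NRF2 targets and redox enzymes divided 12 lower and 6 higher of 23, apoptosis regulators 12 and 7 of 26, and autophagy and lysosome genes 17 and 9 of 30. Against the 32.6% higher and 37% lower over all genes, apoptosis and heat shock genes stayed near the background in at least 1 direction. Nothing is read from their counts or from those of the iron handling genes.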

How the data were processed

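RNA-seq of 6 HCT116 libraries was analysed. The authors deposited estimated counts per gene, since 9.32% to 12% of the values of a library are not whole, and these were rounded to whole numbers. Per the submitters' processing notes, FastQC 0.11.8, Trimmomatic 0.32, HISAT2, featureCounts, Subread 1.6.2, edgeR 3.26.4 and the GRCh38 build were used, and the sources used here do not say how fractional values arose. Whether counting used strand is not stated either, so overlapping and antisense genes are uncertain. Of 60675 genes, 57055 were found in GENCODE 29, which gave GC content and length of the longest transcript.

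The siPIR, SP2509 and untreated libraries (2 each, 3 residual degrees of freedom) were fitted together with edgeR 4.0.16 in R 4.3.3 (quasi-likelihood test, TMM scaling, its default filter on low counts, Benjamini-Hochberg adjustment, threshold 0.05), as counted (16503 genes) and with an offset. The offset was fitted to each library's departure from a gene's mean log2 CPM, with natural splines (5 degrees of freedom) on GC content and on log length (16345 genes, since 158 have no GC value). limma 3.58.1 and DESeq2 1.42.0 served as alternatives. Exact 95% intervals of single ratios and the floor of 3 counts per library cover counting error only.

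The members and the 42 gene lists (1031 of 1032 entries matched) were chosen with earlier results of these data known. Genes were named by rule: PIR, TERT and KDM1A, and the 10 highest and 10 lowest with the offset that both fits call alike. The highest and lowest were protein-coding where annotated, with a mean log2 CPM of at least 3 and libraries of the arms not overlapping. Up to 4 members of each list with the smallest adjusted p in its main direction and 6 genes of each one-arm class were also named. Some of these are not reported here. Named outside that rule, after their values were seen, were list members that ran against their list or the fits, members with a promoter match or a printed sequence, marker genes at 0, mitochondrial transcripts, and SLC38A2, ATF6, ERN1, ATF4, CCNG1, MDM2, CDKN1A, NFKBIA, PDK1, SLC2A3, GAPDH, TPI1, AXIN2, UBE2C, ARRDC3, INSIG1 and INSIG2.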

Additional observations from a re-analysis of the deposited data

How the results depend on the processing

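Alternative scaling, tools, filters and fits were planned with earlier results of these data known. The range of 40 to 60% GC, and the checks of the one-arm counts and the GC correlation, were added after the results had been seen. Under these alternatives the number of genes apart between the arms stayed within 1.5 times its main value except as follows. Only genes of 45 to 50% GC gave 2065 as counted, 1029 higher and 1036 lower, since fewer genes were tested. Testing for changes beyond 1 on the log2 scale gave 3981 higher as counted and, with the offset, 3827, of which 1655 were higher and 2172 lower, and one-arm counts of 383 (SP2509 higher), 301 (SP2509 lower), 338 (siPIR higher) and 402 (siPIR lower). Genes lower in siPIR alone numbered 1300 without a count filter and 442 within 40 to 60% GC.

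The rank correlation with GC content as counted was -0.675 without a count filter, -0.852 with a filter of 1 CPM, -0.848 over the siPIR and SP2509 libraries alone and -0.825 when blocked on the number in the description. With the offset it was -0.179 with total counts, -0.146 with DESeq2, -0.107 with limma-voom, -0.403 without a count filter, -0.103 with a filter of 1 CPM, -0.127 over the 4 libraries and -0.268 on the median GC content of transcripts. The cause was not tested.

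Without each library in turn, where the lone library of an arm is assumed to vary like the other groups, as-counted totals ran from 13298 to 13959 (6064 to 6428 higher, 7234 to 7543 lower) and offset totals from 10526 to 11221 (4807 to 5221 higher, 5713 to 6005 lower). One-arm counts ran from 609 to 639, 583 to 618, 510 to 612 and 694 to 808 in the order above, and the correlation from -0.834 to -0.817 as counted and -0.213 to -0.185 with the offset.

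Libraries with the same replicate number in their titles did not deviate together (correlations of 0.0815, -0.0385 and -0.0244). With 2 libraries a group this cannot exclude a shared batch, and the number in the description was not checked in this way. The lowest such number occurs in siPIR alone, so its effect cannot be told apart from that of the arm. With a replicate block 13816 genes passed as counted and 11287 with the offset. A block for the number in the description fits siPIR replicate 1 exactly, since no other library carries its number. The siPIR arm then rests on siPIR replicate 2 alone, so the counts of genes passing are not given.

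Direction changed for these members, and the cause was not tested. Scaling by total counts gave -0.011 for ATF6, -0.020 for KDM1A and -0.112 for RPL22 as counted. With the offset and no count filter, CANX was at 0.048, CDKN1A at -0.238, CEBPB at -0.280, ERO1B at 0.288, HSP90B1 at 0.136, RPL10A at -0.339 and RPL30 at -0.141. With the offset on median GC content, ALDOA was at 0.309, CANX at 0.447, RPL10A at -0.046, RPL21 at -0.312, RPL22 at -0.007, RPL30 at -1.225, RPL39 at -0.593 and RPS13 at -0.162. TERT ran from -1.642 to 0.237 with single libraries left out, the latter without siPIR replicate 2. Testing beyond 1 on the log2 scale left 5 metallothionein and zinc transporter genes lower as counted, fewer than were higher, and 1 arrestin and glucose-responsive gene lower with the offset. Counts of a few reads in siPIR libraries limit the transcripts of 60% GC or more.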

Other observations

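RNAs of the mitochondrial genome, which are cut from long shared precursors, did not move together. MT-RNR2, the large ribosomal RNA, was at 13478 and 14867 CPM in siPIR, 60872 and 68100 CPM in SP2509 and 10320 and 9931 CPM in untreated libraries. The SP2509 libraries were the highest, with a log2 fold change of siPIR minus SP2509 of -2.19 as counted and -3.02 with the GC-length offset. Against untreated, MT-RNR2 in siPIR was higher as counted (0.48, edgeR adjusted p = 0.001) and lower with the offset (-0.39). MT-RNR1, the small ribosomal RNA, was at 874 and 1111 CPM in siPIR, 4197 and 4664 CPM in SP2509 and 2683 and 2652 CPM in untreated libraries (-2.16 and -2.44). MT-ND5, a complex I subunit, was at 6296 and 7323 CPM in siPIR, 1191 and 1063 CPM in SP2509 and 3721 and 3289 CPM in untreated libraries, so the arms lay on opposite sides of untreated (2.60 and 2.16). Of 13 mitochondrial mRNAs, 9 were higher and 3 lower in siPIR as counted, against 38.8% and 45.5% over all genes. With the offset 4 were higher and 5 lower, near the 32.6% and 37% over all genes, and nothing is read from that count.

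A count of transcripts nearly absent from one arm singled out CYP51A1, the cholesterol synthesis gene described above. Among 5669 tested genes with under 50% GC and at least 5 CPM in each untreated and SP2509 library, it was the 1 gene with at most 5 counts in each siPIR library. In all 132 genes met that rule, 113 of them among the 1483 such genes with 60% GC or more. No gene (0) had at most 5 counts in each SP2509 library with at least 5 CPM in the other 4 libraries. The rule was set after the values of CYP51A1 had been seen.

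Some noncoding classes had more members higher than lower in siPIR. As counted, 38.8% of all genes were higher and 45.5% lower, and with the offset 32.6% and 37%. Of 171 sense intronic transcripts, 96 were higher and 23 lower as counted, but 48 and 32 with the offset (median 0.28), a smaller share in each direction than over all genes. Of 38 snoRNA genes, 26 were higher and 4 lower as counted, and 15 and 3 with the offset (median 0.66), with the share of higher ones close to that over all genes. Of 64 sense overlapping transcripts, 38 and 14 were higher and lower as counted, and 25 and 10 with the offset (median 0.77), again with a share of higher ones not far from that over all genes. Their reads cannot be told apart from those of introns of the host gene in these counts.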
